A study of Mus musculus with 189 samples.

Results

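Gzmb, Scin, Lag3, Nkg7, Napsa, Abhd15 and Acap1 were followed from cell to cell as 7 genes whose RNA separated basophil-mast cell progenitors (BMCPs) from mature mast cells. They are 7 of the 46078 gene rows of the count table. They were chosen by their pooled CPM ratio between the gates, which favoured the progenitors, so the difference between the gates is a description here and carries no test. Both gates drew on peritoneal cells of female C57BL/6 animals, 4 mice in all, for which the labels name no treatment, age or genetic change. Live lineage-negative cells that stained for c-Kit and for FcεRI, the IgE receptor, were sorted through 2 gates, one for mature mast cells (integrin β7 low, side scatter high) and one for BMCPs (integrin β7 high, side scatter low). The labels tie no cell to a mouse, so each gate is 1 pooled sample, and no p-value was computed. All intervals below are 95% intervals and cover counting error only, not differences between mice or amplification reactions.

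Granzyme B, encoded by Gzmb, is a serine protease that cytotoxic lymphocytes store in granules and deliver into target cells, and some mast cells make it too. Nkg7 encodes a membrane protein of cytotoxic granules, and Lag3 an inhibitory receptor related to CD4 that binds MHC class II. Scin encodes scinderin, a calcium-dependent actin-severing protein of the gelsolin family that acts in granule release. Napsa encodes the aspartic protease napsin A, Abhd15 an α/β-hydrolase-fold protein known from fat cells, and Acap1 a GTPase-activating protein for ARF6 that acts in endosomal recycling. Connective tissue mast cells are known for filling their granules with chymases, tryptases and carboxypeptidase A3 as they mature.

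The promoters of Gzmb, Nkg7 and Scin are shown because these 3 genes were on in largely overlapping sets of progenitors. They are RefSeq sequences of build GRCm38.p6, running from 250 bases before to 50 bases after the annotated start, written 5′ to 3′ on the gene's strand. Capitals mark TGTGGT, the core of the RUNX motif, and AGGAAG, an ETS-type sequence, on either strand.
Gzmb, chr14:56262285-56262584, minus strand: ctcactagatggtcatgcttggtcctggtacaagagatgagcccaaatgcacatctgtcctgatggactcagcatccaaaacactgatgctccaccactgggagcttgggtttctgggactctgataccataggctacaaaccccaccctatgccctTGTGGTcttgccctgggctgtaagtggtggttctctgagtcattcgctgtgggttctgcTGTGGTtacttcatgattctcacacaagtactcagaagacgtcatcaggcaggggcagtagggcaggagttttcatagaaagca
Nkg7, chr7:43436888-43437187, plus strand: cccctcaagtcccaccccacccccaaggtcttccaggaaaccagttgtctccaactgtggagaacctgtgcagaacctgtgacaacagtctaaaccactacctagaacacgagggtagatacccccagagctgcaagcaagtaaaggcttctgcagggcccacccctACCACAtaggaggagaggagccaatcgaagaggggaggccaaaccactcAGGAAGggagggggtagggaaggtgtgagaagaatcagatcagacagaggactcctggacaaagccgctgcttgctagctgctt
Scin, chr12:40134179-40134478, minus strand: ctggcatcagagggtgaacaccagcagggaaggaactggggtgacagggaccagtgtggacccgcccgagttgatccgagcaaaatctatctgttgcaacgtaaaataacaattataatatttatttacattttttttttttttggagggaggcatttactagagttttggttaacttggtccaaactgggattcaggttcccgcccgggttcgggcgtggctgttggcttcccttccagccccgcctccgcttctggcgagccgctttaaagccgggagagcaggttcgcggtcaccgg
Starts here are those of RefSeq, which differ for Gzmb and Nkg7 from the gene bounds given below. The Gzmb window lies wholly outside those bounds, which end at 56262260. For Nkg7 the bounds begin at 43437073, within the upstream part of the window. TGTGGT was found 2 times upstream of Gzmb, with first bases 93 and 34 before the RefSeq start. It was found 1 time upstream of Nkg7, 83 before the RefSeq start. Of all 32851 promoters in the table, 16.8% held it. AGGAAG stood 34 bases before the RefSeq start of Nkg7, and 35.4% of all promoters held it. Scin and Abhd15, the other members with a promoter in the table, held neither. AGATAA, the GATA core, was in 0 of the 4 promoters and in 11.2% of all. The sequences TGANTCA (AP-1), CANNTG (E-box), TTCNNNGAA (STAT) and TCACAC (T-box), searched on both strands, were in 1, 2, 2 and 2 of the 4, against 7.81%, 72.3%, 8.3% and 14.5% of all promoters. A match is a run of letters and not a measured binding site.

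Of 95 BMCPs, 93 had at least 100000 reads on endogenous genes and were kept, as were all 94 mature mast cells. Kept BMCPs had a median of 1247890 endogenous reads, from 344022 to 2091665, and mature mast cells a median of 1255267, from 561600 to 2152221. Levels are given as CPM, reads of a gene per 1000000 endogenous reads of the cell. Both gates held mast cell RNA, with all 7 genes of a mast cell list above 5 pooled CPM in each gate, among them Kit at 1144 CPM in BMCPs and 979.9 CPM in mature mast cells. BMCP numbers 46 and 80 went against their label. They held 4795 and 6527 CPM of the B cell gene Cd79a, and only 0.113% and 0.157% of their reads fell on mast cell granule genes. BMCP number 44 held 764.4 CPM of the T cell kinase gene Lck. Lck alone marked this cell, since it had 0 CPM of the T cell gene Cd3e and 13.3% granule reads. Values that rest on these 3 cells are also given without them.

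Gzmb, Scin, Lag3 and Nkg7 were close to all-or-none in the progenitors, whereas Abhd15 was not. Napsa and Acap1 stood between, with 6 and 4 BMCPs from 10 to 50 CPM. A cell was called on for a gene at 50 CPM or more. Gzmb was on in 60 of 93 BMCPs (64.5%, 53.9 to 74.2), and no BMCP lay between 27.9 and 542.7 CPM. The 60 cells had a median of 6612 CPM, from 542.7 to 22013, and the other 33 a median of 4.84 CPM, from 0.648 to 27.9. In the 94 mature mast cells Gzmb ranged from 0 to 15.9 CPM with a median of 3.28, so the Gzmb-off BMCPs overlapped the range of mature mast cells and the Gzmb-on BMCPs did not.

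Lag3 had the cleanest gap after Gzmb. It was on in 40 BMCPs (43.01%, 32.8 to 53.7), from 58.2 to 4235 CPM with a median of 1237, and the highest of the 53 off cells had 3.33 CPM. Scin was on in 44 BMCPs (47.3%, 36.9 to 57.9), from 103.3 to 6508 CPM with a median of 1064, and 33.9 CPM was the highest value among its 49 off cells. No mature mast cell reached 50 CPM of Scin, where the highest value was 2.89 CPM. For Lag3 a single mature mast cell, number 20, was on, at 137.3 CPM.

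Nkg7 was on in 43 BMCPs (46.2%, 35.8 to 56.9), from 64.7 to 5664 CPM with a median of 1369. Its on-cells were the most spread of the 7 genes, with an upper quartile 5.36 times the lower. The highest off value was 27.1 CPM. Among mature mast cells 7 were on (7.45%, 3.05 to 14.7), the highest at 590.6 CPM, so the ranges of the gates overlapped.

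Napsa and Abhd15 were on in fewer progenitors than the other genes, and Acap1 in about as many as Lag3. Acap1 was on in 39 BMCPs (41.9%, 31.8 to 52.6), with a median of 559.7 CPM and a highest value of 1764 CPM. It was also on in 12 of 94 mature mast cells (12.8%, 6.77 to 21.2), the highest at 567.9 CPM. Napsa was on in 28 BMCPs (30.1%, 21.03 to 40.5), from 134.3 to 3822 CPM with a median of 439.4, and in 3 mature mast cells. Abhd15 was on in 28 BMCPs as well, but its median was 117.5 CPM and 13 of the 28 lay between 50 and 100 CPM. A further 8 BMCPs had 10 to 50 CPM, so for Abhd15 the line between on and off was not a gap.

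Reads of Abhd15 are uncertain in another way, because its exons overlap exons of Taok1 and Trp53i13 on the opposite strand. Whether counting used the strand is not given in the sources used here. Napsa overlaps an antisense gene, Gm15396, that is not a row of the table. Gzmb lies at chromosome 14, 56258838 to 56262260, in GRCm38, on the minus strand, and Scin at chromosome 12, 40059769 to 40134228. Lag3 lies at chromosome 6, 124904361 to 124911705, and Nkg7 and Napsa on chromosome 7, at 43437073 to 43438249 and 44572380 to 44586862. Acap1 and Abhd15 are on chromosome 11, at 69881567 to 69895539 and 77515121 to 77538607. The 7 genes thus lie on 5 chromosomes.

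**Figure D1:**
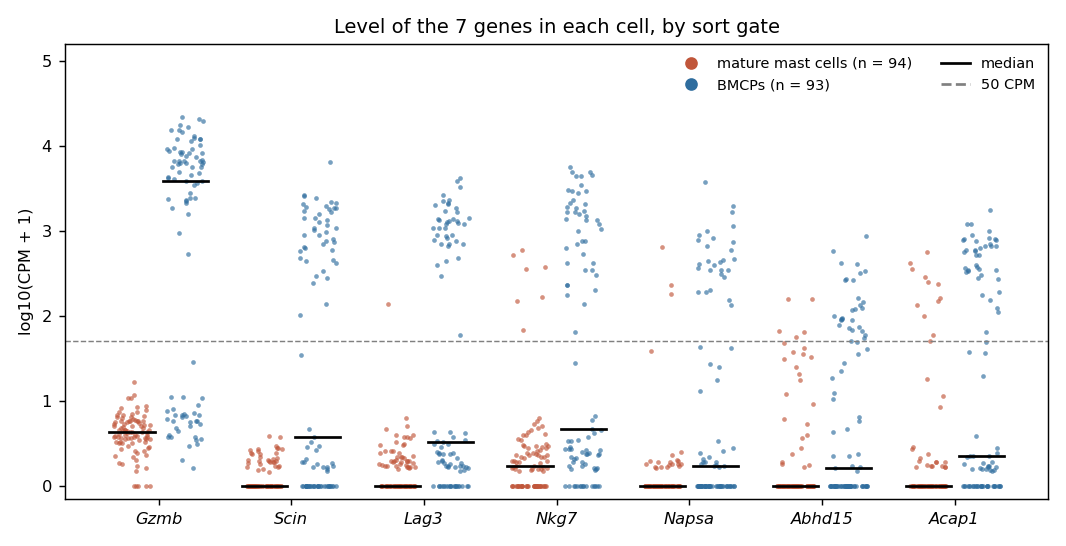
Level of each gene in each kept cell, as log10(CPM + 1), for 94 mature mast cells (red) and 93 BMCPs (blue), with the median as a bar and the 50 CPM line dashed. Gzmb, Scin and Lag3 form an upper and a lower cloud in the BMCPs with almost nothing between them, while Abhd15 runs through the line.

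Pooled over cells, Gzmb had 4714 CPM in BMCPs and 3.39 CPM in mature mast cells, and log2 of the mature over the BMCP value was -10.07 with 1 CPM added to each. The ratio was -8.73 for Scin, -7.64 for Lag3, -5.04 for Nkg7, -3.94 for Napsa, -2.99 for Abhd15 and -2.98 for Acap1. The members were chosen by this ratio, and all 7 lay at or below -2. So did 766 of 10556 genes that reached 5 CPM in 1 gate or both (7.26%). Among 2088 genes that reached 50 CPM in their higher gate and were read in 50% or more of that gate's cells, the members took ranks 1, 2, 3, 6, 8, 9 and 10. Mcpt8, Itga4 and Maf stood at ranks 4, 5 and 7 and are not members, and Ptprcap followed at rank 11 with -2.97. Single mature mast cells weighed on several of these ratios. Without the cell with most reads in each gate the ratio was -8.36 for Lag3 and -4.72 for Napsa. The median ratio of all 10556 genes was -0.25. Scaling by spike-in RNA shifted all genes up by 0.91 on the log2 scale before the 1 CPM was added, and TMM scaling by 0.25, and all 7 stayed below -2 under both.

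Per kilobase of annotated exon, Gzmb was the most abundant of the 7 in pooled BMCPs, at 3282 CPM per kb. Nkg7 followed at 831.0, Lag3 at 284.3, Scin at 201.5, Napsa at 65.4, Acap1 at 43.97 and Abhd15 at 23.3 CPM per kb. Nkg7 stood above Lag3 and Scin on this scale although it was on in about as many cells.

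Progenitors tended to carry either nearly all of the genes or nearly none. None of the 7 was on in 17 BMCPs and exactly 1 in 19, while 5 or more were on in 33. The remaining 24 BMCPs had 2 to 4 genes on. The full set was on in 4 cells, BMCP numbers 23, 35, 67 and 70, whose Gzmb ranged from 11519 to 22013 CPM. Of 128 possible on/off patterns 38 were seen, 19 of them in a single cell. With the 4 genes Gzmb, Scin, Lag3 and Nkg7 alone, 29 BMCPs had none, 28 had all 4, and 36 had some.

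**Figure D2:**
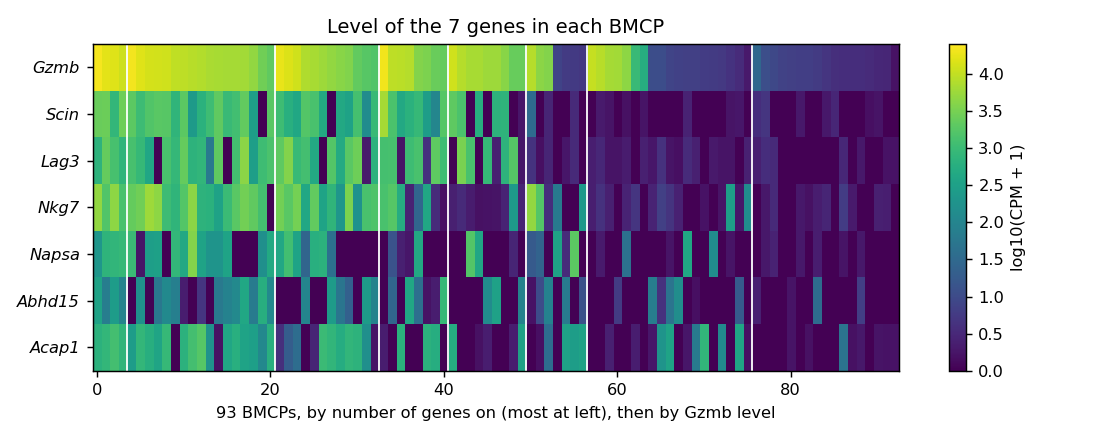
Level of the 7 genes (rows) in each of 93 BMCPs (columns) as log10(CPM + 1), ordered by the number of genes on and then by Gzmb, with white lines where that number changes. Gzmb stays bright across the columns in which other genes have gone dark, and in the group with a single gene on, 7 cells have Gzmb.

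Gzmb enclosed Scin and Lag3 completely. All 44 Scin-on BMCPs and all 40 Lag3-on BMCPs were also on for Gzmb (intervals 91.96 to 100% and 91.2 to 100%), against 64.5% of all BMCPs. In the 33 Gzmb-off BMCPs 0 had Scin on and 0 had Lag3 on, which allows a share of up to 10.6% for each. Conversely 16 Gzmb-on cells lacked Scin and 20 lacked Lag3. Nkg7 was enclosed less tightly, with 39 of its 43 on-cells on for Gzmb (90.7%, 77.9 to 97.4) and 4 outside. Those 4 were BMCP numbers 1, 13, 59 and 77, with Nkg7 between 64.7 and 300.7 CPM, all below the median of Nkg7-on cells.

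Napsa and Abhd15 followed Gzmb in 24 of 28 and 25 of 28 on-cells. Acap1 was the loosest, on in 30 of 60 Gzmb-on BMCPs (50.0%, 36.8 to 63.2) and in 9 of 33 Gzmb-off BMCPs (27.3%, 13.3 to 45.5). These 2 intervals overlapped. BMCP numbers 46 and 80, which held B cell RNA, were 2 of those 9, and without the 3 doubted cells 7 of 31 Gzmb-off BMCPs had Acap1 on. BMCP number 80 also held 1984 CPM of Napsa. Leaving those cells out left Scin and Lag3 at 0 of 31 Gzmb-off BMCPs, Nkg7 at 4, Napsa at 3 and Abhd15 at 3.

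Mature mast cells, which were all below 50 CPM for Gzmb, held few of the other genes. In 68 of 94 cells no member was on, in 25 cells 1 was, and number 80 had 3, with Nkg7 at 520.3, Napsa at 655.2 and Abhd15 at 55.8 CPM. Acap1 was on in 12 of them, Nkg7 in 7, Abhd15 in 5, Napsa in 3, Lag3 in 1, and Scin and Gzmb in 0 (upper limit 3.85%). Acap1 and Nkg7 were thus the most frequent of the 7 in mature mast cells, and Acap1 also the most frequent in Gzmb-off BMCPs, where Nkg7 and Napsa followed with 4 cells each.

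Across the 21 pairs of genes, the share of the rarer gene's on-cells that were also on for the commoner gene had a median of 75%, from 35.7 to 100%. It exceeded the commoner gene's overall share in 21 of 21 pairs. The members were all chosen for lower RNA in mature mast cells, and this choice by itself favours such overlap. The share was not computed for pairs of other genes, so the 21 of 21 is a description only. The lowest share among the members was that of Napsa with Abhd15, which shared 10 of 28 on-cells each, close to the 30.1% of all BMCPs. Within the trio of Scin, Lag3 and Nkg7, Scin and Lag3 shared 35 cells with 9 on for Scin alone and 5 for Lag3 alone. Scin and Nkg7 shared 34, with 10 and 9 on for 1 of the pair, and Nkg7 and Lag3 shared 31, with 12 and 9. These near-equal counts gave no order within the trio.

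**Figure D3:**
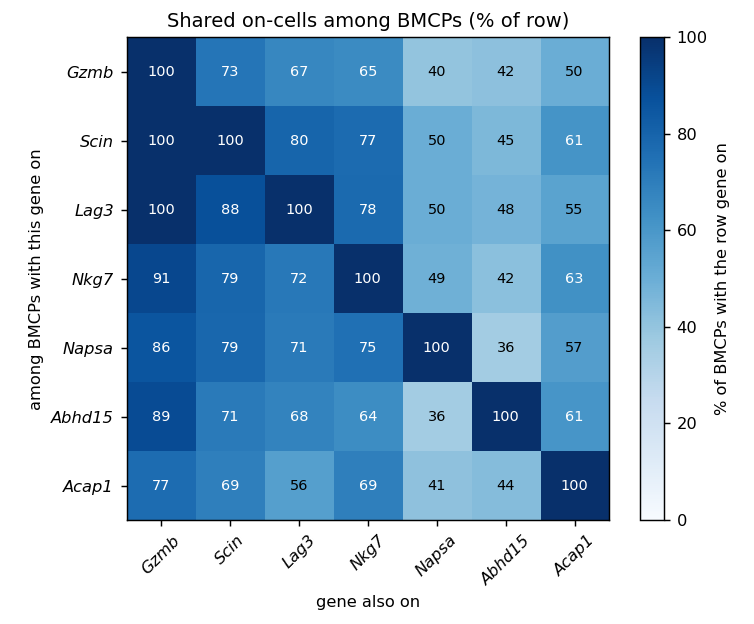
For each row gene, the percentage of BMCPs on for it that were also on for the column gene (28 to 60 cells per row). The Gzmb column is at 100% for Scin and Lag3 and at 76.9% for Acap1, while the Gzmb row is at 73.3% or lower for the other genes.

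Levels carried less order than states. Spearman's rho of the levels over 93 BMCPs was 0.70 for Gzmb with Scin, 0.66 for Gzmb with Nkg7 and 0.57 for Gzmb with Lag3. It was -0.03 for Napsa with Abhd15, and the median over the 21 pairs was 0.32. When only cells on for both genes were used, the median rho fell to 0.10, with 0.51 for Gzmb with Nkg7, 0.43 for Gzmb with Scin and -0.01 for Gzmb with Lag3. These are descriptions over cells that share library chemistry and depth, over as few as 10 cells for a pair.

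Gzmb level itself differed with how much of the trio was on. In the 28 Gzmb-on BMCPs with Scin, Lag3 and Nkg7 all on, Gzmb had a median of 9241 CPM, from 1595 to 22013. In 16 cells with 2 of the 3 on it was 4051 CPM, in 7 cells with 1 on 6638 CPM, and in 9 cells with none on 4504 CPM, from 542.7 to 10205. The ranges overlapped widely. The 9 cells with Gzmb but none of the trio included the 2 lowest Gzmb-on values, 542.7 CPM in BMCP number 26 and 948.1 CPM in number 20. All the other 58 Gzmb-on BMCPs had at least 1000 CPM.

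The progenitors were next put in order of granule RNA, as the percentage of endogenous reads on 10 granule genes such as Cma1, Cpa3, Tpsb2 and Mcpt4, with the 7 members left out of the total. This is an order of cells taken at a single time, not a time course. It is also not independent of the choice of members, since granule RNA is itself higher in mature mast cells. The share had a median of 17.3% in BMCPs (quartiles 8.69 and 22.6) and 28.03% in mature mast cells (quartiles 25.8 and 30.4).

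Every member was on most often among the 31 BMCPs with least granule RNA and least often among the 31 with most. Gzmb was on in 28, 26 and 6 cells of the low, middle and high groups, a fall of 70.97 percentage points (48.2 to 82.9) from low to high. Lag3 was on in 21, 17 and 2 cells, Scin in 24, 16 and 4, and Nkg7 in 25, 13 and 5. The fall was 61.3 points for Lag3 (38.6 to 75.8) and 64.5 points for Scin (41.04 to 78.1) and for Nkg7 (40.9 to 78.1). Napsa was on in 16, 8 and 4 cells, Abhd15 in 16, 7 and 5, and Acap1 in 20, 11 and 8, with falls of 38.7, 35.5 and 38.7 points. All 7 members fell by at least 25 points, as did 79 of 1422 genes that were on in as many BMCPs (5.56%). The median fall was 61.3 points for the members and -3.23 points for those genes. The latter were matched by number of on-cells and not by the gate ratio that chose the members. That choice by itself favours a fall along granule RNA, so both contrasts are descriptions only. Abhd15 and Acap1 did not keep this size throughout: the fall of Abhd15 was 12.9 points with the line for on at 100 CPM, and in the first block of deposited columns it was 13.3 points, where that of Acap1 was 20 points.

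The 3 Gzmb-off cells of the low group stood apart from the others in it. They were the B cell RNA wells 46 and 80 and BMCP number 40, which had 2.65% granule reads, 27.9 CPM of Gzmb, no member on, and 8.17% mitochondrial reads against a median of 0.868% in BMCPs. Without the cells that held B or T cell RNA, Gzmb was on in 28, 26 and 5 of 30 cells each and fell by 76.7 points (54.3 to 87.2). The part of RNA quality in number 40 was not tested.

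**Figure D4:**
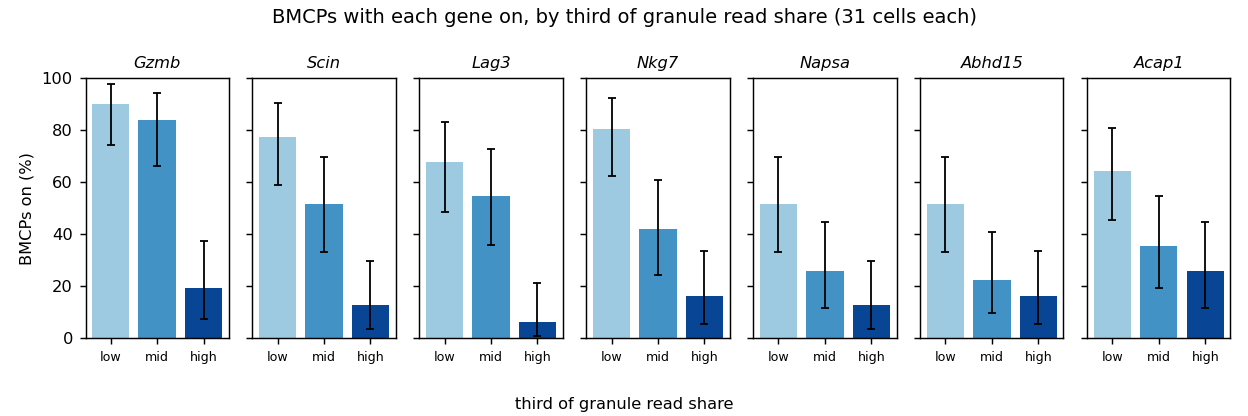
Percentage of BMCPs with each gene on (y axis) among the 31 cells with the lowest, middle and highest granule read share (x axis), with 95% Clopper-Pearson intervals. Gzmb stays at 83.9% in the middle group and drops in the high group, whereas Nkg7 is at 41.9% in the middle group. The contrast was smaller when cells were ordered by Mcpt4 and Mrgprb1, with 70.97% for Gzmb and 48.4% for Nkg7 in the middle group.

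Along this order the genes differed in where they were off, but the differences depended on how cells were ordered. Between the low and the middle group Gzmb was on in 2 fewer cells and Lag3 in 4 fewer, against 8 for Scin and Napsa, 9 for Abhd15 and Acap1, and 12 for Nkg7. Between the middle and the high group Gzmb was on in 20 fewer cells, Lag3 in 15, Scin in 12, Nkg7 in 8, Napsa in 4, Acap1 in 3 and Abhd15 in 2. Neighbours in this order had overlapping intervals in each group, so single steps of it are not resolved. When cells were ordered by the summed level of Mcpt4 and Mrgprb1 instead, Gzmb was on in 30, 22 and 8 of 31 cells, Nkg7 in 23, 15 and 5, Lag3 in 23, 12 and 5, and Scin in 26, 13 and 5. Napsa was then on in 16, 9 and 3 cells, Abhd15 in 14, 8 and 6, and Acap1 in 18, 13 and 8. Between the low and middle groups of that order Gzmb and Nkg7 fell by the same 8 cells, and Napsa, Abhd15 and Acap1 by fewer. No order of loss of all the members thus held on both. Within this step Gzmb fell by fewer cells than Lag3, and Lag3 by fewer than Scin, on both. Between the middle and high groups Gzmb fell by the most cells on both. The intervals of Gzmb and Lag3, and of Lag3 and Scin, overlapped in each group on both, so this partial order is not resolved.

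The 60 Gzmb-on cells were also cut into 20 each by granule share. Nkg7 was on in 19, 12 and 8 of 20, Napsa in 13, 8 and 3, and Acap1 in 15, 8 and 7. Scin was on in 17, 16 and 11, Lag3 in 14, 16 and 10, and Abhd15 in 10, 11 and 4. The median Gzmb level of these cells was 10689, 6270 and 5066 CPM. Gzmb-on cells with high granule RNA thus still had a median Gzmb level of 5066 CPM, while Nkg7 was on in 40% of them (19.1 to 63.9) and Napsa in 15% (3.21 to 37.9).

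Gzmb and Scin were last on in the same cell, BMCP number 45, with 24.7% granule reads, 1842 CPM of Gzmb and 136.2 CPM of Scin. None of the 20 BMCPs with more granule RNA had either. Lag3 was last on in number 29 at 21.6%, just above the line with 58.2 CPM, and off in all 28 BMCPs beyond it. Nkg7 was last on at 28.7%, Napsa at 28.7%, Acap1 at 32.5% and Abhd15 at 33.3%. Of the 15 BMCPs above the median granule share of mature mast cells, 7 had no member on and 0 had Gzmb on.

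**Figure D5:**
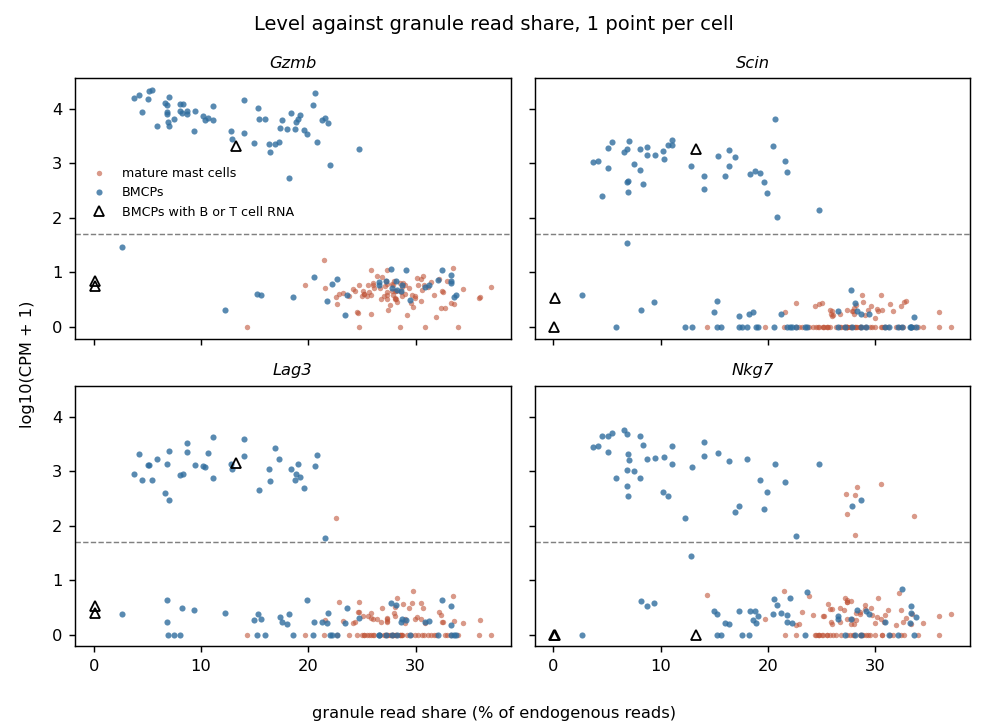
Level of Gzmb, Scin, Lag3 and Nkg7 as log10(CPM + 1) against granule read share in each mature mast cell (red) and BMCP (blue), with the 3 BMCPs that held B or T cell RNA as open triangles and 50 CPM dashed. Gzmb forms a band up to 24.7% granule reads and then stops, and beyond it the BMCPs lie among the mature mast cells.

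No fixed order of loss described all cells. If the genes went off as nested steps with Gzmb last, each cell would hold the first genes of a chain. The 57 BMCPs with all or none of Gzmb, Scin, Lag3 and Nkg7 fit any chain. Of the 36 with some, 19 fitted Gzmb, Scin, Lag3, Nkg7 in that order and 17 fell outside it. The 5 other orders of the trio fitted between 14 and 18 of the 36. Gzmb alone was seen in 9 of these 36 cells and Nkg7 alone in 4, while Scin alone and Lag3 alone were seen in none. The 9 cells with Gzmb alone fit every order tried, because each order begins with Gzmb, so they do not tell the orders apart.

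Other orders of the cells gave other results. With cells ordered by the summed level of Mcpt4 and Mrgprb1, markers of mature mast cells, every member fell, by 25.8 to 70.97 points. Ordered by endogenous reads per spike-in read, a measure of RNA content, Gzmb fell by 41.9 points, Scin by 19.4 and Nkg7 by 0 points. Ordered by genes detected after thinning each cell to 100000 reads, Gzmb fell by 29.03 points while Nkg7 and Napsa were on in more cells at the high end (falls of -25.8 and -29.03 points). Gzmb-on BMCPs had a median of 497.0 endogenous reads per spike-in read and 2386.5 genes, and Gzmb-off BMCPs 731.4 and 2624. Their median depths were close, at 1273122.5 and 1233201 reads.

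The deposited columns form 2 blocks, and cells of both gates were in each. In the first and second block Gzmb was on in 33 of 47 and 27 of 46 BMCPs, Scin in 26 and 18, Lag3 in 23 and 17, and Nkg7 in 24 and 19. Napsa was on in 17 and 11, Abhd15 in 13 and 15, and Acap1 in 20 and 19. The intervals of the blocks overlapped for each gene, and each gene fell with granule RNA within each block. The labels do not say what the blocks are.

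Genes whose level followed the number of members on were ranked by Spearman's rho over 93 BMCPs, among 3984 genes with at least 20 pooled CPM and a read in at least 30% of BMCPs. Their median rho was 0.02. A rho of at least 0.3 was reached by 145 genes (3.64%) and a rho of -0.3 or lower by 93 (2.33%). The highest was Ivns1abp, which encodes an influenza NS1-binding protein, at 0.66, followed by Ptprcap, which encodes a CD45-associated protein, at 0.66 and the basophil protease gene Mcpt8 at 0.65. Next came Itm2b at 0.64, the Cd9 pseudogene Cd9-ps at 0.61, the tubulin gene Tubb5 at 0.59, Angpt1 at 0.59, Patz1 at 0.56, Gm15427 at 0.55 and the chemokine receptor gene Ccr1 at 0.55. Cd9-ps may share reads with Cd9, so its value is uncertain.

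Ccr1 resembled the members most in being off elsewhere. It was on in 18 of the 33 BMCPs with 5 to 7 members, in 0 of the 36 with none or 1, and in 0 of 94 mature mast cells. Mcpt8 was on in 27 of those 33 and in 3 of those 36. Angpt1, which encodes the vessel growth factor angiopoietin 1, was on in 19 and 2. Itm2b differed in level rather than in state, since it was on in 92 of 93 BMCPs.

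At the other end, Cma1, the mast cell chymase gene, stood at -0.68, Tpsab1, a tryptase gene, at -0.66, and Tph1, the first enzyme of serotonin synthesis, at -0.66. Mrgprb1 had -0.63, Gpr141b -0.63, Pla2g7 -0.60, Pmp22 -0.58, Slc31a2 -0.57, Stard13 -0.57 and Hdc, the histamine-forming enzyme, -0.56. Tpsab1 was on in 1 of the 33 BMCPs with 5 to 7 members and in 22 of the 36 with none or 1, Mrgprb1 in 2 and 29, and Gpr141b in 4 and 33.

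Gene by gene, the closest to Gzmb were Scin (rho 0.70), Itm2b (0.70) and Nkg7 (0.66), and Cma1 (-0.68) was among the most opposed. Itm2b and Mcpt8 followed Gzmb for Scin (0.67 and 0.65), with Gpr141b at -0.63 and Cma1 at -0.59. For Nkg7 the 3 closest were Gzmb, Scin (0.54) and Mcpt8 (0.54), with Cma1 at -0.55 and Tpsab1 at -0.49. For Lag3 the closest was Atp8b4 (0.58), which encodes a phospholipid-flippase subunit, before Gzmb (0.57) and Scin (0.55), with Tph1 at -0.60 and Hdc at -0.58 on the other side. Napsa was closest to Ivns1abp (0.49), then Gzmb (0.46) and Smg6 (0.43), with Tph1 at -0.51 and Tpsab1 at -0.43. Acap1 was closest to Tuba4a (0.54), Ptprcap (0.53) and Ccr1 (0.49), with Ctsd at -0.45 and Cma1 at -0.39. Abhd15 had the weakest likeness, with Map1lc3b at 0.39, Hrh4 at 0.36, Alox5 at 0.35, Pmp22 at -0.35 and Mrgprb1 at -0.33.

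Of 20 other genes of the cytotoxic granule pathway 8 passed 5 CPM, and 0 of them had a log2 ratio past 2 in either direction. The median of the 8 was -0.29. Of all genes 7.26% lay at or below -2 and 3.81% at or above 2, and 8 genes are too few to set against these shares. Prf1, the pore-forming partner of granzymes, had 119 reads, all in a single BMCP, and Gzmm had 142 of 158 reads in a single BMCP. Gzma had 1 read and Gzmk, Gzmd, Fasl and Ctsw had 0 in both gates. Gzmc, a paralog of Gzmb, had 76 reads in BMCPs with at most 10 in a cell. Srgn, the proteoglycan that packs granule proteases, had 5368 CPM in BMCPs and 4768 CPM in mature mast cells. Ctsc, the peptidase that activates granzymes, had 554.1 and 215.0 CPM, a log2 ratio of -1.36. Across BMCPs Ctsc had a rho of 0.37 with the number of members on, and it was on in 26 of the 33 BMCPs with 5 to 7 members and in 16 of the 36 with none or 1.

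T and NK cell markers were near zero beside Gzmb, Lag3 and Nkg7. Of 20 such genes 11 had no read in any kept cell, among them Cd3d, Cd3e, Cd3g, Cd8a, Ncr1, Klrb1c, Klrd1 and Eomes. The summed level of the list in the 33 BMCPs with 5 to 7 members ranged from 0 to 766.2 CPM with a median of 0, and in mature mast cells from 0 to 2041 CPM with a median of 0. Cd4 was the most abundant, at 39.1 pooled CPM in BMCPs, with 2749 of its 4670 reads in a single cell. Cd247 had 12.8 CPM in mature mast cells, and Lck had 856 of 858 reads in BMCP number 44. That cell had 6 of the 7 members on, all but Nkg7.

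The macrophage and neutrophil lists had 0 of 7 and 0 of 6 genes above 5 CPM, and the eosinophil list had 2 of 5. The summed levels in the 33 BMCPs with 5 to 7 members reached at most 2.73 CPM for macrophage, 0 for neutrophil and 805.1 CPM for eosinophil genes, each with a median of 0. The B cell list reached 71090 CPM in BMCPs, with a median of 3.19, and at most 1244 CPM in those 33. All 6 B cell genes passed 5 CPM, and their sum had a median of 103.9 CPM in mature mast cells. Ighm, the immunoglobulin μ chain gene, was on in 23 BMCPs and in 45 mature mast cells.

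Among basophil markers Mcpt8 moved with the members and others did not. The summed level of 7 basophil genes had a median of 7509 CPM (587.6 to 37348) in the 33 BMCPs with 5 to 7 members on, 618.5 CPM (6.37 to 19399) in the 36 with none or 1, and 1050 CPM in mature mast cells. Of the list 5 of 7 genes passed 5 CPM and 2 lay at or below -2, Mcpt8 at -6.72 and Itga2 at -3.10, whereas Prss34 was at 0.88 and Cebpa had 0 reads. Spearman's correlation with the number of members on was 0.65 for Mcpt8, 0.17 for Il4, -0.06 for Itga2, -0.14 for Cd200r3 and -0.17 for Prss34. Progenitor genes had a summed median of 976.6 CPM in the same 33 cells, 492.04 CPM in the 36 and 226.6 CPM in mature mast cells. Of that list 4 of 8 passed and 1, the integrin gene Itga4, lay at or below -2, while Mpo had 0 reads. The part of these genes in the results was not tested. Of all genes 7.26% lay at or below -2, and the basophil and progenitor lists hold too few genes to set against that share.

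Among ligands and inhibitory receptors beside Lag3, 8 of 12 genes passed 5 CPM and 6 lay at or below -2, where 7.26% of all genes did. Few cells carried these 6 genes. H2-Aa, H2-Eb1 and H2-Ab1, genes of the MHC class II that LAG3 binds, were on in 2, 2 and 5 BMCPs. Without the 3 doubted cells H2-Aa and H2-Eb1 fell to 0.277 and 0.121 CPM, and 3 of the 5 genes that still passed lay at or below -2. These were H2-Ab1 at -2.20, Havcr2 at -3.05 and Cd244a at -5.55. Havcr2 had 3120 of 3391 BMCP reads in a single cell. Cd244a, an NK cell receptor gene also known as 2B4, was on in 6 BMCPs, all of them with 5 to 7 members on. Pdcd1 and Ctla4 had 0 reads.

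Of 7 other gelsolin family genes 5 passed 5 CPM and 0 lay past 2 in either direction, with a median of -0.06, too few genes to set against the 7.26% of all genes at or below -2. Capg, an actin-capping protein gene, had 718.5 CPM in BMCPs and 810.3 CPM in mature mast cells, and Gsn 148.8 and 142.6 CPM. Of the aspartic proteases beside Napsa 3 of 7 passed and 0 lay past 2, again too few genes to set against that share. The lysosomal protease gene Ctsd had 3887 CPM in BMCPs and 5877 CPM in mature mast cells, and Ctse 102.4 and 84.6 CPM.

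For Abhd15, 17 of 19 other genes of its list passed and 2 lay at or below -2 (median -0.32). These were Pde3b, the phosphodiesterase gene whose protein ABHD15 binds in fat cells, at -2.08, on in 9 BMCPs and 5 mature mast cells, and Abhd17c at -3.72, on in 4 and 1. For Acap1, 13 of 14 passed and 2 lay at or below -2 (median -0.56). Agap2 stood at -4.45, on in 11 BMCPs and 0 mature mast cells, and Adap1 at -2.30, on in 4 and 0. Arf6, the GTPase that ACAP1 acts on, had 38.1 and 32.7 CPM, and Acap2, a paralog of Acap1, 90.2 and 41.7 CPM. Of all genes 7.26% lay at or below -2, and both lists hold too few genes to set against that share.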

How the data were processed

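The authors deposited raw read counts per gene for each cell, 46078 gene rows, 92 ERCC spike-in rows and 5 summary rows. Per the labels' protocols, 2 plates of 96 wells received 1 cell per well, oligo-dT primed the cDNA, which was amplified with 23 PCR cycles without molecular identifiers, and read as 50 bp single ends. GSNAP, HTSeq 0.5.3p3 and mm10 are named in the submitters' processing notes; annotation and strand setting are not given in the sources used here. Totals excluded the summary and ERCC rows. Reads without a feature made up 12.5% in the mature gate and 16.2% in the BMCP gate. Multiply aligned reads were listed at 0, so reads of near-identical genes are uncertain. Symbols matched 45143 gene identifiers (98.0%). Annotation was GENCODE M21 on GRCm38, and promoters came from RefSeq (GRCm38.p6), with entries for 4 of the 7 genes. Cells with at least 100000 endogenous reads were kept, and no doublet caller was run. None of the kept columns were identical. Shares of cells have exact Clopper-Pearson intervals and falls have Newcombe intervals, at 95%. The pooled ratio and the rho ranking were tested on simulated data. Python 3.11.15, scipy 1.17.1 and edgeR 4.0.16 (TMM factors only) were used. The members, lists and thresholds were chosen with earlier results of these data known. Named genes were the members, genes of the lists above 5 CPM, the most abundant or defining markers of other cells, for each member the 3 highest and 2 lowest rho, and for the number of members on the 10 highest and 10 lowest. Pathway genes under 5 CPM and the cells named by number were chosen after their values were seen, and not every list gene is named. A result that the rule would name is not reported here. Alternatives varied the line for on, depth, scaling, cell order and cells kept.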

Additional observations from a re-analysis of the deposited data

How the results depend on the processing

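No paired analysis was possible because the cell numbers in the labels name wells within a gate, tie no cell to a mouse, and no test was made. Leaving out cells with B or T cell RNA for the shares of cells, and single blocks of columns, were alternatives chosen after seeing the data. With 1 read as the line for on, the share of BMCPs rose to 100% for Gzmb, 66.7% for Scin, 78.5% for Lag3, 83.9% for Nkg7, 51.6% for Napsa and for Abhd15, and 68.8% for Acap1. At that line 89 of 94 mature mast cells were on for Gzmb too, 33 for Scin, 45 for Lag3 and 59 for Nkg7. Napsa was on in 21 of them, Abhd15 in 26 and Acap1 in 30. At 100 CPM the share of BMCPs on for Abhd15 was 16.1%. The other shares at 10 CPM, at 100 CPM, after thinning, in deep cells, in single blocks, with granule reads left out of the total and without doubted cells stayed within the intervals of the reported values. The median nested share ranged from 71.4% to 85.4%. Ordered by endogenous reads per spike-in read, the falls were 41.9 points for Gzmb, 19.4 for Scin, 16.1 for Lag3, 0 for Nkg7, 3.23 for Napsa, and 9.68 for both Abhd15 and Acap1. Ordered by genes detected, they were 29.03 for Gzmb and 6.45 for Lag3, and turned to -6.45 for Scin, -25.8 for Nkg7, -29.03 for Napsa, -12.9 for Acap1 and -9.68 for Abhd15. In the second block of columns the fall of Gzmb was 86.7 points. That of Abhd15 was 13.3 points in the first block and 12.9 with the line at 100 CPM, and that of Acap1 was 20 in the first block. The cause of these changes was not tested. The pooled log2 ratios stayed negative under all 6 alternatives, with a median over the 7 genes from -5.31 to -4.14. After thinning, 8 of the 10 genes with the highest rho remained among the 10 highest. Thinning to 100000 reads gave 32.3% for Abhd15. The number of cells limits each order, since a share of 31 cells has a wide interval.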
